A study of Rattus norvegicus with 12 samples.

Results

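The genes described here encode the proteins of the cytosolic ribosome, and their RNA was measured in the prefrontal cortex (PFC) of rats killed 2 h after an acute footshock session began. Members were taken by name: probe sets whose platform annotation gave exactly 1 gene symbol that starts with Rpl or Rps and a digit, or is Rplp0, Rplp1, Rplp2 or Rpsa, without the Rps6k kinases and without symbols marked as pseudogenes. The rule found 322 probe sets of 117 symbols, and 307 probe sets of 103 genes had a mean log2 value above 4 over the 12 arrays. They are 103 of the 17245 genes that the table names by a single symbol, and their 307 probe sets are part of the 16085 that were tested. The 15 probe sets below the level took 14 genes with them. Nearest to the level from below were Rpl38l3 (mean 3.95), Rpl30l3 (3.95) and Rpl29l6 (3.99), and nearest from above were Rpl14l1 (4.04), Rpl34l1 (4.05) and Rpl30l1 (4.10).

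The animals were 12 adult male Sprague–Dawley rats, housed in pairs, with 1 Affymetrix Rat Gene ST array per rat. The 6 stressed rats (Stress 1 to 6) were exposed to inescapable footshock for 40 min at 0.8 mA, with 20 min of shock in all and pauses of 2 to 8 s, and then returned to the home cage. The 6 control rats (Control 1 to 6) stayed in their home cages without any session, so that handling, a new chamber and shock cannot be told apart in this comparison. PFC was dissected as bulk tissue, where fewer cells of a type and less RNA per cell cannot be told apart.

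The cytosolic ribosome is built from a large (60S) and a small (40S) subunit, each an assembly of ribosomal RNA and many proteins needed in equal numbers. Transcripts of these genes usually start with a C followed by a run of pyrimidines, the terminal oligopyrimidine (TOP) element, through which the kinase complex mTORC1 sets how strongly they are translated. The level of these RNAs can therefore stay unchanged while their translation changes, and an array measures only the RNA. In neurons ribosomal protein RNAs also lie in dendrites and axons. Ribosomal protein genes have many processed copies in mammalian genomes, and a single symbol can stand on many of the array's probe sets.

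The start of a ribosomal protein transcript is shown for 6 genes on which the results turn. Each window holds 30 bases of the sense strand from RefSeq (build GRCr8), 10 before the annotated start and 20 from it on, with an unbroken run of at least 7 C or T letters in capitals where such a run touches the 5 bases on either side of the start. Rps2 is at chr10:14251838-14251867 (plus strand), Rpl29 at chr8:115947633-115947662 (plus), Rpl28 at chr1:78083513-78083542 (minus), Rpl12 at chr3:36661930-36661959 (plus), Rps12 at chr1:23500065-23500094 (plus) and Rpl36a at chrX:102059439-102059468 (plus).
Rps2: TCTTTTTCTTCgggaaaacacgtgagtctg
Rpl29: TTTCTCTTTCTCTTCCggtcccaggcgctg
Rpl28: cccctagtgTCTTTCTTTCCgtctccggcc
Rpl12: aacatccgTCTTTTCggctttcggttcgga
Rps12: gaagcccagcagagcgcttaaataccgtca
Rpl36a: tataaacttccgttgctgctctagcctctc
The run was 20 bases long in Rps2 and 18 in Rpl29, where it reaches back beyond the window, 11 in Rpl28 and 7 in Rpl12. Relative to the annotated start it began at -19 in Rps2, -12 in Rpl29, -1 in Rpl28 and -2 in Rpl12. In Rps2 and Rpl29 most of the run thus lies before the annotated start, outside the annotated RNA. Runs were counted whole, so such bases are part of their length. In Rps12 and Rpl36a the longest run touching the start had 3 and 5 bases, which says only that these letters are not at the annotated start. Only the sense strand was searched, because the element is read in the RNA. Of 56 standard ribosomal protein genes among the members, 48 had a single start in the RefSeq table, and 33 of these 48 (68.8%) held such a run. Over all 24206 genes with a single start the share was 12.96%, and over protein-coding genes it was 12.3%. The nuclear genes of mitochondrial ribosomal proteins, which build a separate ribosome inside mitochondria, held the run in 6 of 50.

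The members fell into kinds. The 56 standard genes held 257 probe sets. A further 46 probe sets stood on 43 loci named as like a ribosomal protein gene (Rpl29l2, Rps26l1 and others), of which RefSeq gives 41 as protein-coding, Rpl29l2 as a pseudogene and Rpl14l1 as a transcribed pseudogene. There were 3 paralogs (Rpl3l, Rpl7l1 and Rps4y2), 1 probe set each. The rule also took in Rps19bp1, which encodes a protein that binds RPS19 and is not itself a ribosomal protein. The large-subunit names covered 227 probe sets of 68 genes and the small-subunit names 80 probe sets of 35 genes. The standard genes were bright, with a median log2 value of 9.78 over their probe sets, against 6.82 over all probe sets tested and 5.49 over the like loci. The brightest 5 probe sets were 4 of Rps29 (11.70 to 11.81) and 1 of Rpl21 (11.01). The dimmest 5 were Rpl14l1, Rpl34l1, Rpl30l1, Rpl31l7 and Rps26l1, all at or below 4.11. Brightness on an array depends on the probes, so these values order probe sets and not amounts of RNA. Rplp1, Rplp2, Rps27a, Rpl38, Rps25, Rpl26, Rps4x and the paralogs Rpl10l, Rpl22l1, Rpl26l1, Rpl36al, Rpl39l and Rps27l had no member probe set and were not analysed here.

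Signals of tissue around the PFC varied between the rats. Mean log2 values of the choroid plexus list (6 genes, Ttr among them) were 8.51 in Control 5 and 4.88 to 5.36 in the other 11 rats. The striatal projection neuron list (7 of 8 tested) ran from 6.76 to 8.49 in controls and from 6.74 to 8.25 in stressed rats, and the red blood cell list (5 of 7) from 7.30 to 8.83 and from 7.02 to 7.95. All 5 red blood cell probe sets were lower in stressed rats and all 5 had an unadjusted p under 0.05, with a difference of -0.68 in their mean and a lowest adjusted p of 0.273. All 7 striatal and all 6 choroid plexus probe sets were also lower, with median differences of -0.44 and -0.58, none with an unadjusted p under 0.05. Oligodendrocyte markers (6 of 7) lay between 9.35 and 9.85 in controls and 9.58 and 9.80 in stressed rats, with all 7 probe sets higher and 2 of them at an unadjusted p under 0.05. The cortical excitatory neuron list (7 of 8), which marks the labelled tissue, lay between 9.30 and 9.66 in controls and 9.44 and 9.63 in stressed rats. Ranges in controls and stressed rats were 10.11 to 10.35 and 10.14 to 10.37 for astrocyte markers, 9.09 to 9.18 and 9.04 to 9.17 for interneurons, 7.89 to 8.15 and 7.93 to 8.03 for microglia, and 7.40 to 7.53 and 7.30 to 7.41 for endothelium. Of the endothelial probe sets 2 of 4 had an unadjusted p under 0.05, both lower, and of the microglial ones 2 of 5, 1 in each direction. The arrays were also clustered on the 5682 dimmest probe sets and cut into 2 sets, a number fixed beforehand. These were Control 1 to 4 (array set 1) and Control 5, Control 6 and all 6 stressed rats (array set 2). The last merge was only 1.14 times as high as the one before it, so the division was not sharp. Array set 2 holds both groups, and values within it are given below. The part of these differences in the results was not tested.

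RNA of cytosolic ribosomal proteins was close to the control level in stressed rats, 2 h after the session began. With limma, 0 of the 307 probe sets passed an adjusted p of 0.05, beside 7 of 16085 probe sets over the whole table (0.0435%), and the lowest adjusted p of a member was 0.393. An unadjusted p under 0.05 was reached by 17 members (5.54%) against 6.35% of all probe sets tested. Of the 17, 4 were higher and 13 lower in stressed rats, where the background was 3.43% higher and 2.92% lower. This balance rested on single rats: without Control 1 the count was 16, of which 13 were higher, and without Stress 1 it was 22, of which 10 were higher. In array set 2 alone the count was 5, of which 3 were higher. These 17 probe sets belong to only 6 genes: 7 to Rps2, 4 to Rpl29, 3 to Rps12 and 1 each to Rpl28, Rpl29l2 and Rpl19l1. The groups overlapped for every one of the 307 members, while 0.441% of all probe sets tested had groups that did not overlap.

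The differences were small as well as not significant. The median log2 difference, stressed minus control, was -0.0023 over the 307 members, 0.0039 over all probe sets tested and 0.0044 over 69 probe sets of mitochondrial ribosomal proteins. The interquartile range of the members, -0.025 to 0.024, was narrower than that of all probe sets tested, -0.032 to 0.039. The extremes were Rpl28 at -0.20 and Rpl19l1 at 0.17. Of the members, 290 (94.5%) differed by less than 0.1, which is 1.07-fold, against 88.2% of all and 97.1% of the mitochondrial probe sets. The 95% interval of limma lay within 0.2 of zero, or 1.15-fold either way, for 273 members (88.9%). That share was 78.5% of all and 88.4% of the mitochondrial probe sets. The like loci among the members had lower shares, 82.6% under 0.1 and 69.6% with the interval within 0.2. The median half-width of that interval was 0.087, and the median residual SD was 0.066 for members and 0.085 for all probe sets. In the plot of the distribution of differences the members form a taller and narrower peak around zero than the whole table. The ranges, shares and plot count probe sets and not genes, and Rpl21 and Rpl7a alone hold 90 of the 307. The part of repeated probe sets and of brightness in the narrower spread was not tested.

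**Figure D1:**
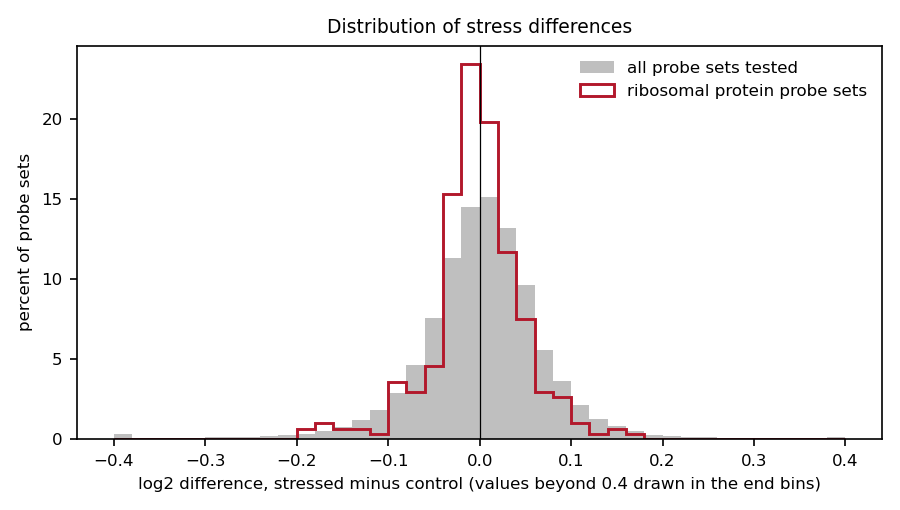
Distribution of the log2 difference (stressed minus control, horizontal axis) as percent of probe sets (vertical axis), for all 16085 probe sets tested (grey) and the 307 ribosomal protein probe sets (red line). Both centre near 0, and no ribosomal protein probe set lies beyond -0.20 or 0.17.

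The mean of all members, each centred on its own average, also differed less between the groups than between rats of a group. In controls it was 0.055, -0.024, -0.031, -0.00015, 0.020 and -0.011 for rats 1 to 6. In stressed rats it was -0.045, 0.054, 0.0018, 0.031, -0.043 and -0.0068. The highest 2 arrays were a control and a stressed rat, Control 1 and Stress 2. The group means differed by -0.0029, with an SD between rats of 0.032 in controls and 0.040 in stressed rats.

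Small-subunit probe sets lay slightly above zero and large-subunit probe sets slightly below it. Of the 80 small-subunit probe sets 58 were higher in stressed rats, with a median difference of 0.021, and of the 227 large-subunit probe sets 86 were higher, with a median of -0.0059. Over all probe sets tested 53.0% were higher. These counts weigh genes by their number of probe sets, since Rpl21 and Rpl7a alone hold 90 of the 307 (29.3%). With each gene taken once by the median of its probe sets, 58 of 103 genes were higher and 45 lower, and the median was 0.0043. The small-subunit shift also rested on 1 rat: its median was -0.0061 without Stress 2 and 0.037 without Control 1. Within array set 2 it was 0.017, and that of the large subunit was -0.016.

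Rps2 and Rpl29 had the most negative median differences among genes with more than 3 probe sets. Rps2 is a small-subunit protein near the path by which mRNA enters, and its 7 probe sets differed by -0.090 to -0.080. The mean of the 7 ran from 10.85 over a median of 10.91 to 10.93 in controls and from 10.72 over 10.83 to 10.88 in stressed rats. Of the stressed rats 4 lay below all controls, and Stress 2 and Stress 4 lay among them. The exact permutation p of the 7 probe sets, two-sided and not adjusted, ran from 0.011 to 0.026, and their adjusted p in limma from 0.718 to 0.758. Since the 7 share a gene and rats, they are not 7 independent results. Within array set 2 the differences were -0.087 to -0.063.

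Rpl29 is a small, basic protein of the 60S subunit. Its 8 probe sets differed by -0.100 to -0.067, with adjusted p from 0.709 to 0.837. The mean of the 8 ran from 10.35 over a median of 10.41 to 10.53 in controls and from 10.27 over 10.34 to 10.44 in stressed rats. Stress 2 was the highest of the stressed rats and 3 stressed rats lay below all controls, so the groups overlapped. Within array set 2 the median of the 8 differences was -0.056 in place of -0.083. The pseudogene Rpl29l2 has 2 probe sets, and the bright one gave -0.096 ± 0.039 (SE), with Control 1 highest and Stress 5 lowest as in Rpl29.

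Rpl28, a large-subunit protein, had the most negative difference of all members with a single probe set. Its values ran from 8.02 over a median of 8.26 to 8.30 in controls and from 7.94 over 8.01 to 8.16 in stressed rats. Control 6 was the lowest control, and without it the other 5 controls (8.19 to 8.30) lay above all stressed rats. The group means were 8.22 ± 0.11 and 8.03 ± 0.089 (SD, n = 6 each), a difference of -0.20 ± 0.054 (SE) or 0.872-fold. The adjusted p in limma was 0.393 and the exact permutation p 0.013, not adjusted for the 67 probe sets given this test. Within array set 2 the difference was -0.12, and without Control 6 the adjusted p was 0.110.

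Rps12, a protein of the small-subunit head, gave higher values in all of its probe sets. Its 4 probe sets differed by 0.11, 0.13, 0.11 and 0.16, with adjusted p from 0.668 to 0.812. The mean of the 4 ran from 7.14 over a median of 7.22 to 7.34 in controls and from 7.18 over 7.36 to 7.47 in stressed rats. Stress 1 was low among controls, and in each of the 4 probe sets 4 stressed rats lay above all controls. Within array set 2 the 4 differences were smaller and alike, between 0.070 and 0.072.

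**Figure D2:**
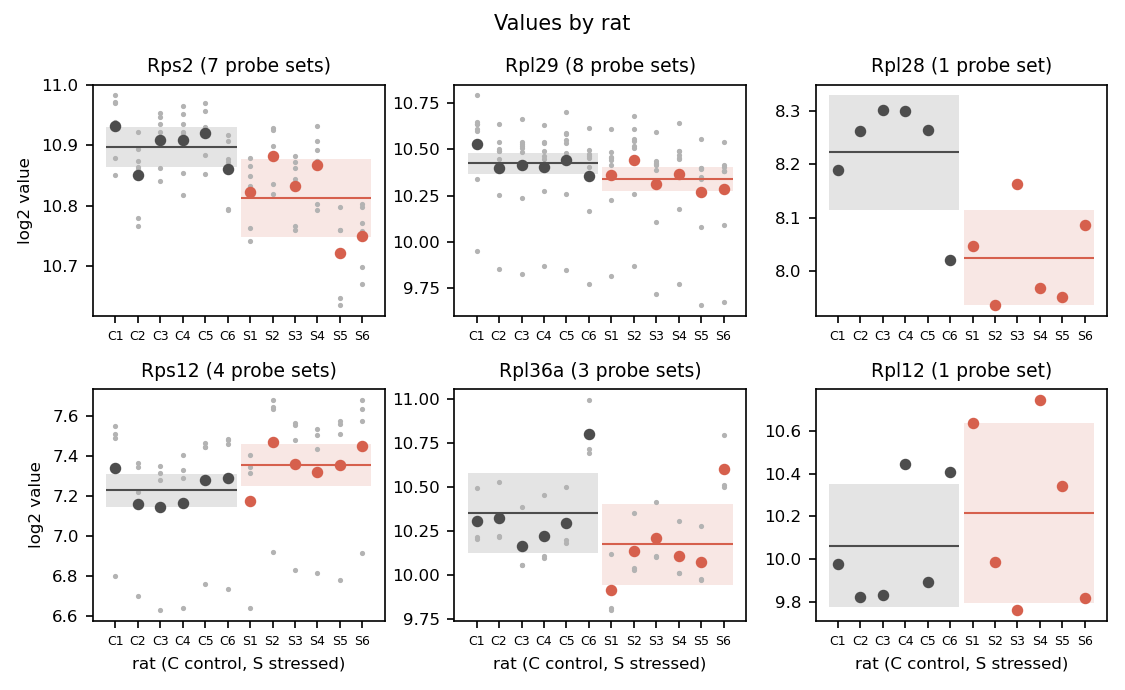
Log2 values by rat for 6 genes (C1 to C6 control, S1 to S6 stressed). Small grey points are single probe sets, large points their mean per rat, lines the group means and bands ± 1 SD over the 6 rats of a group. In Rps2 4 stressed rats lie below all controls, Control 6 and Stress 6 stand high in Rpl36a, and Rpl12 splits both groups into high and low rats.

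Rpl36a and Rpl12 were among the members that varied most among rats, together with Rpl36Al2 and the dim Rpl29l2, a choice made after their values were seen. Rpl36a encodes a 60S protein and lies on the X chromosome. The mean of its 3 probe sets ran from 10.17 over a median of 10.30 to 10.80 in controls and from 9.91 over 10.12 to 10.60 in stressed rats. Control 6 and Stress 6 were high in all 3 and Stress 1 was lowest. The difference of -0.18 to -0.17 was smaller than the residual SD of 0.22 to 0.23, and the lowest adjusted p was 0.840. It was -0.27 at its most negative without Stress 6, -0.083 at its least without Control 6, and -0.37 in the median within array set 2. Rpl36Al2, a like locus named after Rpl36al, had the same order at its ends: Control 6 (5.85) and Stress 6 (5.65) were highest and Stress 1 (4.94) lowest.

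Rpl12, a protein at the base of the 60S stalk, had the largest residual SD of any member (0.36). Values of 10.34 to 10.75 were found in 5 rats, Control 4, Control 6, Stress 1, Stress 4 and Stress 5, and values of 9.76 to 9.98 in the other 7. No rat lay between. The 2 levels occurred in both groups, with 2 high rats in controls and 3 in stressed rats. The difference between groups was 0.15 ± 0.18 (SE), with an adjusted p of 0.937. It was 0.047 without Stress 4, 0.24 without Stress 3 and 0.066 within array set 2. Rps9 (SD 0.20) and Rpl41 (SD 0.15 and 0.17) also varied widely among rats. The highest Rps9 values were 8.71 in Stress 6 and 8.67 in Control 1.

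The other members at the ends of the range were mostly dim or single. Besides Rpl28, Rpl36a and Rpl36Al2, the lowest 8 held Rpl29l2 (-0.17 at its dim probe set), Rpl28l3 (-0.15) and Rpl38l5 (-0.14). The dim Rpl29l2 and the Rpl28l3 difference changed sign within array set 2, to 0.0025 and 0.073. Besides Rps12 and Rpl12, the highest 8 held Rpl19l1 (0.17 ± 0.072 SE), Rpl10l3 (0.10) and Rpl14l2 (0.099). Their adjusted p values were 0.751, 0.808 and 0.840. These 3 are like loci, with control means of 5.20, 6.85 and 4.24.

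No member with a known role outside the ribosome's core passed the threshold, and the one with the largest difference, Rps3, is given below. Rps6, the small-subunit protein that S6 kinases phosphorylate, ran from 10.31 over 10.35 to 10.40 in controls and from 10.34 over 10.36 to 10.43 in stressed rats, a difference of 0.021 ± 0.029 (SE) with an interval of -0.041 to 0.083. Rpl5 and Rpl11 bind 5S ribosomal RNA and, when ribosome assembly fails, restrain Mdm2. Rpl5 differed by 0.050 ± 0.044 and Rpl11 by -0.025 ± 0.028, with adjusted p of 0.898 and 0.937. Rplp0, which carries the acidic stalk proteins, differed by -0.016 ± 0.050. Rpsa, the small-subunit protein also known as the laminin receptor precursor, has 2 probe sets at -0.039 ± 0.046 and -0.0043 ± 0.066.

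Rps3, a small-subunit protein with a role in DNA repair described in human cells, was the role gene with the largest difference. It ran from 9.10 over 9.16 to 9.31 in controls and from 9.12 over 9.28 to 9.45 in stressed rats, a difference of 0.097 ± 0.054 (SE, adjusted p = 0.819 in limma). Only Stress 2 lay above all controls. Rpl10, which completes the 60S subunit, differed by -0.0011 ± 0.028, and its 6 controls lay between 10.90 and 10.95. Rpl13a, known for its release from the ribosome in interferon-treated human monocytes, has 3 probe sets, at 0.033 ± 0.035, 0.031 ± 0.032 and, for the dim one, -0.0024 ± 0.048.

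Paralogs and their parents were measured for part of the list. Rpl3 differed by -0.060 ± 0.037 (SE) and its striated-muscle paralog Rpl3l, at a mean near the level of 4 (4.51 in controls), by -0.024 ± 0.046. Rpl7 differed by 0.039 ± 0.039 and Rpl7l1 by 0.027 ± 0.039. Rpl22 has 3 probe sets between 0.011 and 0.033, and the 7 probe sets of Rpl39 lay between -0.0023 and 0.0087. Rps27 differed by -0.043 ± 0.047. Of the 19 probe sets of 9 genes on this list 8 were higher and 11 lower, none passed the test, and the median was -0.0023. The Rpl39 probe sets at -0.0023 held identical values. They repeat a single measurement among the 11 lower, and the median is that value.

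Agreement between probe sets of a gene could be read in 33 genes, which held 237 probe sets. The remaining 70 genes had 1. All probe sets of a gene lay on one side of zero in 22 of the 33 genes (66.7%), 13 higher and 9 lower, against 65.3% of the 755 genes with several probe sets in the whole table. Besides Rps12, all probe sets were higher in, among others, Rps19 (9, from 0.025 to 0.062), Rps15a (6, from 0.017 to 0.053), Rps21 (4, from 0.017 to 0.040) and Rps29 (4, from 0.037 to 0.042). Besides Rps2, Rpl29 and Rpl36a, all were lower in, among others, Rpl23a (6, from -0.017 to -0.00033) and Rpl37a (3, from -0.036 to -0.0033). Rps19 and Rps15a are small-subunit proteins whose residual SDs, 0.12 to 0.15, were wider than their differences. Within array set 2, 8 of the 9 Rps19 probe sets were higher.

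The 2 genes with the most probe sets differed in pattern. Rpl21 has 46 probe sets, 45 of them lower, with a median of -0.026 and a range of -0.060 to 0.00043. Their mean ran from 10.52 over 10.55 to 10.61 in controls and from 10.44 over 10.54 to 10.58 in stressed rats, with Control 6 and Stress 6 lowest in their groups. The 44 probe sets of Rpl7a were split, 21 higher and 23 lower, from -0.055 to 0.054 with a median of -0.0010. Their mean ran from 8.29 over 8.37 to 8.47 in controls and from 8.30 over 8.37 to 8.45 in stressed rats. The lowest adjusted p was 0.823 for Rpl21 and 0.854 for Rpl7a.

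**Figure D3:**
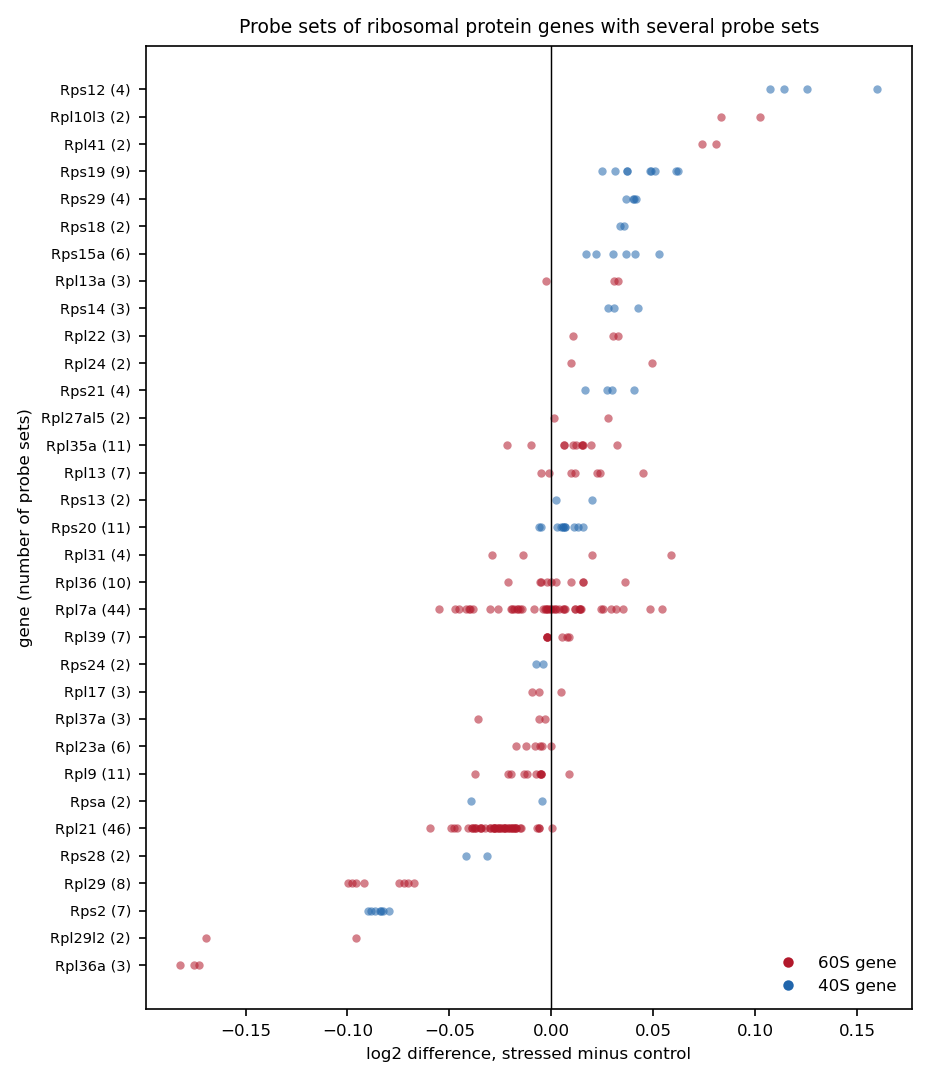
Log2 difference (stressed minus control, horizontal axis) of each probe set of the 33 genes with several probe sets, ordered by their median, with the number of probe sets in brackets. Red points are large-subunit and blue points small-subunit genes. Rps12 lies at the right, Rps2, Rpl29 and Rpl36a at the left, and the 44 Rpl7a probe sets straddle zero.

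The gap between 2 probe sets of a gene was tested as the stress effect on their difference within each array, over all 4277 same-symbol pairs of the table. Of these 2390 were pairs of members, 1981 of them in Rpl21 and Rpl7a. With limma 0 member pairs passed an adjusted p of 0.05, as in the whole table (percent called 0), and the lowest adjusted p of a member pair was 0.492. An unadjusted p under 0.05 was reached by 182 member pairs (7.62%), beside 320 of all pairs (7.48%). The median gap was 0.015 for member pairs and 0.031 for the 1887 other pairs. The 5 widest gaps were all in Rpl7a, from 0.096 to 0.11. The widest was 0.11 ± 0.037 (SE, adjusted p = 0.610), between a probe set at 0.054 and one at -0.055. The 3 narrowest, 2 in Rpl21 and 1 in Rpl7a, were close to 0.

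Probe sets of a ribosomal protein gene also rose and fell together from rat to rat. This was measured as the SD of the difference between 2 probe sets, with group means removed, over the SD expected if they varied independently. The ratio is 1 for independent probe sets and 0 for identical ones. Its median over the 33 genes was 0.257, against 0.746 over 704 other genes with several probe sets, and it was under 0.5 in 28 of 33 (84.8%) against 27.8% of the others. It was lowest in Rpl36a (0.057) and Rps18 (0.072) and highest in Rpl29l2 (0.959) and Rpl13a (0.816), each of which pairs a bright with a dim probe set. Another 12 probe sets of 5 genes (Rpl39, Rpl35a, Rpl36, Rpl9 and Rps20) held values identical to those of another member and were left out of each other's pairs. Low ratios were not particular to ribosomal protein genes: Eno1 (0.233), Cycs (0.213) and Prdx1 (0.091) were among 196 of the 704 other genes under 0.5. Members were also brighter, with a median log2 value of 9.13 against 6.82 over all probe sets tested. The part of brightness in the ratio was not tested. The sources used here do not give the probes, so how far probe sets of a symbol share probe sequence was not tested.

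**Figure D4:**
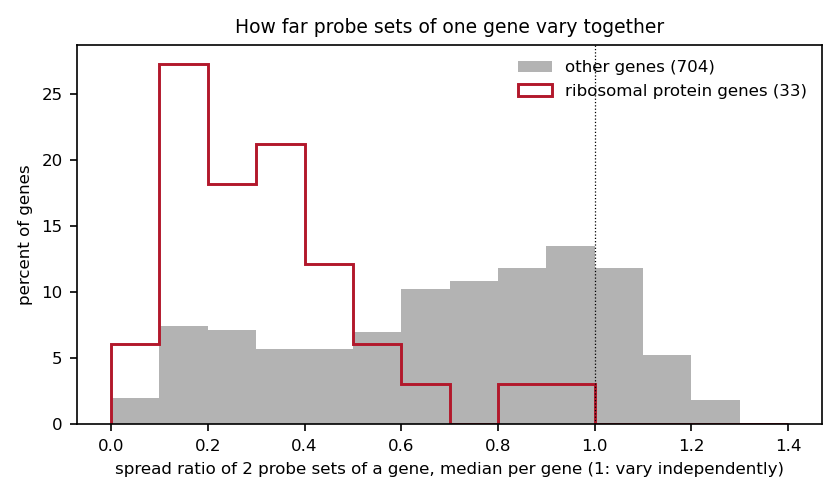
Percent of genes (vertical axis) by the spread ratio of their probe sets, the median over pairs (horizontal axis, 1 means independent variation), for 33 ribosomal protein genes (red line) and 704 other genes (grey). Most ribosomal protein genes lie under 0.5, with a median of 0.257 against 0.746.

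Among standard genes the run of pyrimidines at the start did not go with the direction of the difference. The 33 genes with a run of at least 7 had a median difference of 0.0043, 18 higher and 15 lower, and ranged from -0.20 to 0.15. The 15 genes with a shorter run or none had a median of 0.0013, 8 higher and 7 lower, and ranged from -0.18 to 0.12. The genes shown above fall on both sides: Rps2, Rpl29 and Rpl28, with long runs, were lower and Rpl12 was higher. The runs of Rps2 and Rpl29 lie mostly before the annotated start. Rps12 and Rpl36a, with none, lay at opposite ends. These are descriptions over genes that share the same rats.

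Other genes of the pathway showed no called change either. Of the translation factors and other genes known to carry a TOP element, 28 of 34 were tested on 35 probe sets, 0 were called, 21 were higher and 14 lower, and the median was 0.019. Those with the smallest p were Eif3b (-0.081 ± 0.034 SE), Eif3h (0.20 ± 0.092), the chaperonin subunit Cct4 (0.091 ± 0.042) and Eif3l (-0.066 ± 0.033). Of the ribosome assembly genes 48 of 54 were tested on 50 probe sets, 0 were called, 30 were higher and 20 lower, and the median was 0.013. Rrp8, a methyltransferase of the nucleolus, differed by 0.20 ± 0.038 (SE), with group means of 6.59 ± 0.061 and 6.79 ± 0.056 (SD, n = 6 each) and an adjusted p of 0.137 in limma, the lowest of these 3 lists. The groups did not overlap in 1 of the 50 probe sets of the list, where 0.441% of all probe sets tested had groups that did not overlap. The next were Mphosph10 (0.10 ± 0.043), Bop1 (0.079 ± 0.039) and Nolc1 (-0.071 ± 0.036), which all act in the making of ribosomal RNA or its particles, with adjusted p of 0.742 for Mphosph10 and 0.806 for the other 2. For mTORC1 and the regulators of TOP translation, 20 of 24 genes were tested on 23 probe sets, 0 were called and the median was -0.0067. Of the 23, 10 were higher and 13 lower, and 5 (21.7%) had an unadjusted p under 0.05, 4 of them higher, against 6.35% of all probe sets tested. The list was written with earlier results of these data known, so the 2 shares are a description and not a test. Ddit4, a stress-induced inhibitor of mTORC1, ran higher by 0.40 ± 0.090 (adjusted p = 0.224), and Sesn1, which restrains mTORC1 when amino acids are scarce, by 0.19 ± 0.053 (adjusted p = 0.423). The repressor of translation initiation Pdcd4 differed by -0.14 ± 0.052 and the elongation factor kinase Eef2k by 0.11 ± 0.041, both with an adjusted p of 0.668.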

How the data were processed

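PFC RNA (250 ng per rat, random primers) was measured on 1 array per rat. The authors deposited log2 values for each probe set, obtained by background correction, quantile normalization and summarisation (RMA) in oligo 1.58.0. Quantile normalization removes differences in total signal, and with them any shift common to most genes. The sources used here do not give whether arrays of other time points entered the normalization, nor the genome build of the annotation.

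Groups came from the sample labels. Probe sets that had 1 platform symbol and averaged above 4 (16085 probe sets of 14847 genes) were fitted with lmFit and eBayes of limma 3.58.1 (R 4.3.3) on group alone, two-sided, with Benjamini-Hochberg adjustment over all of them and a threshold of 0.05. The test, level and adjustment follow the study's methods, while the mean over arrays and the single symbol were chosen here. Pairs of probe sets were fitted in the same way on their per-array difference. Exact permutation tests used all labellings of the 12 arrays. Both fits were tested on simulated data in which every probe set varied independently. Probe sets of a ribosomal protein gene varied together here, so the simulation does not cover that case for the pair fit. The 12 arrays are separate rats, and their number limits the precision.

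Named genes were those past the threshold (none), the 8 largest and 8 smallest differences, the 5 brightest and 5 dimmest, genes with several probe sets, the 5 widest and 3 narrowest pair gaps, and hand-written lists of role genes and paralogs. Up to 4 genes of smallest p were named from each other pathway list. Members and lists, markers included, were chosen with earlier results of these data known. Array sets came from clustering the arrays on probe sets at or below 4, with the number of sets fixed at 2. Alternatives were other filters and scalings, an intensity trend, array weights, a replicate block, an array set term, array set 2 alone, and leaving out each rat. RefSeq names and starts are of GRCr8, with Python 3.11.15 used for the searches.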

Additional observations from a re-analysis of the deposited data

Results flagged for a closer look

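In 10 of 134 checks of 1 group of 6 rats, a single rat stood apart from the other 5 by a wide gap. Chance gives about 1 in 20 for unselected, independent values. Part of these probe sets were picked for their values, so that rate does not apply to them. Control 6 was the high rat in the 3 probe sets of Rpl36a, at 10.71, 10.99 and 10.69, and in Rpl36Al2, at 5.85. Without Control 6 the Rpl36a differences were -0.095 to -0.083. Control 1 was low in 2 probe sets of Rpl22, at 6.82 and 6.75, and in the pseudogene Rpl14l1, at 3.87. Stress 3 was high in Rpl10, at 10.99, against 10.91 to 10.92 in the other stressed rats. Stress 2 was high in 1 probe set of Rpl29, at 10.61. Control 4 was low in Rpl31l7, at 3.91. Probe sets of a gene share rats, so these are not separate events.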

How the results depend on the processing

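No member passed the threshold under any alternative, nor did any pair of members, and the lowest adjusted p of a member was 0.110, without Control 6. The 7 probe sets past the threshold in the whole table became 1 with array set as a term and 1 within array set 2, and 4 to 8 when a rat was left out. Counting members by unadjusted p in place of adjusted p gave 17. That count was 11 after repeated quantile normalization, 8 with array set as a term, 5 within array set 2, and 3 (without Stress 5) to 22 (without Stress 1) when a rat was left out. Member pairs with an unadjusted p under 0.05 numbered 123 (without Stress 5) to 230 (without Control 2). The median of the members stayed within the spread between rats (0.036), from -0.015 to 0.010, but changed sign, as did the number of members higher, 100 to 181 of 307. The 6 correlations between rats of the same replicate number ran from -0.14 to 0.42, and 3 of 6 rats correlated best with their own number. With so few rats this does not settle whether the numbers pair the rats. With a replicate block the table had 6 calls, 16 members had an unadjusted p under 0.05, and 129 member pairs did.

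Single probe sets named in the text numbered 64 with different values. None crossed the threshold in 1401 values under alternatives. The sign was opposite to the reported one in 80 values (50 of them with a rat left out), and 44 of the 64 kept their sign throughout. Other filters, the intensity trend and the replicate block leave a difference unchanged, so their values could not change sign. Array set 1 holds only controls, so the array set term and array set 2 alone must give the same difference, which is counted under both. The 80 of 1401 is therefore not a rate of reversal. With array set as a term and within array set 2, which gave the same values, Rpl10 became 0.013, the 3 probe sets of Rpl22 -0.017, -0.017 and -0.021, Rpl28l3 0.073, the dim Rpl29l2 0.0025, Rpl39 0.0048, Rpl3l 0.083, Rpl5 -0.00052, Rplp0 0.021 and Rps6 -0.014. Repeated quantile normalization gave 0.0076 for Rpl10, 0.0042 for the dim Rpl13a and -0.013 for Rpl30l1. Array weights gave 0.012 for the dim Rpl13a, -0.020 for Rpl30l1 and 0.0015 for Rpl39. Centring the arrays on their median gave -0.0021 for Rpl30l1 and -0.00035 for Rps26l1. The cause was not tested. Leaving out 1 rat at a time turned the sign in these ranges: Rpl10 -0.015 to 0.0040, the dim Rpl13a -0.020 to 0.032, Rpl14l1 -0.048 to 0.00054, Rpl22 -0.0028 to 0.048, -0.0068 to 0.021 and -0.0034 to 0.046, Rpl30l1 -0.042 to 0.045, Rpl34l1 -0.030 to 0.0038, Rpl39 -0.014 to 0.026, -0.028 to 0.011, -0.016 to 0.020 and -0.016 to 0.021, Rplp0 -0.048 to 0.0070, Rps26l1 -0.027 to 0.027, and the bright Rpsa -0.037 to 0.036. With 6 rats a group, a difference smaller than the half-width of its own interval could not be told from zero, even before adjustment. The median half-width of the members, 0.087, is not a limit of detection. An Rps2 probe set at -0.080 had an unadjusted interval wholly below zero (-0.15 to -0.0087). Rpl28 at -0.20 did not pass the threshold (adjusted p = 0.393 in limma). Dim probe sets understate changes.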

Other observations

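Another 92 probe sets carried several symbols with a ribosomal protein gene among them, and all lay above the level of 4. They were left out because they cannot be given to 1 gene. Their median difference was 8.3e-05, with 46 higher and 46 lower, and the range was -0.10 to 0.19.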
